A study of Mus musculus with 16 samples.

Results

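RNA of hippocampal neurons was compared with RNA of cortical neurons, both from adult TERT-AD mice given tamoxifen. The 4 hippocampal and 4 cortical tamoxifen libraries (TAM) were taken by their labels and make up 8 of the 16 libraries of the series. All mice have the strain label B6.129S6.SvEvTac, and the other 8 libraries, 4 hippocampal and 4 cortical, come from mice given vehicle (CTL). The series describes the tamoxifen neurons as Tert-activated, Tert being the catalytic subunit of telomerase. The hippocampal samples labelled tamoxifen held 0.931 and 2.04 CPM of Tert (CPM is a count scaled to the library total) and the hippocampal controls 1.29 and 3.59 CPM, so Tert was not higher there with tamoxifen, and the groups are named by their labels throughout. The promoter that drives the activation, the sex and exact age of the mice, the way neurons were isolated and the number of animals behind each library are not stated in the labels. The comparison asks which genes differ between the regions in mice that have had tamoxifen, and it does not measure what tamoxifen did.

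The hippocampus is a folded sheet with a few large classes of excitatory neuron: granule cells in the dentate gyrus and pyramidal cells in the fields CA1, CA2 and CA3. The neocortex stacks its pyramidal cells in layers, each with its own transcription factors and projection targets. Both regions also hold inhibitory interneurons and glia. Tamoxifen binds estrogen receptors and is widely used to release Cre recombinase fused to a mutant estrogen receptor domain.

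Values are gene counts scaled to CPM, the usual depth-scaled unit, with TMM library sizes, which also correct for differences in composition. Libraries 1 and 2, and libraries 3 and 4, of each group were near repeats. At 20 to 200 counts their differences had 2.55 to 2.8 times the variance that counting alone gives, against 3.61 to 11.3 times for other pairs of the same group. Above 2000 counts the ratios were 3.12 to 5.64 and 14 to 244. Each pair was therefore summed to 1 sample, sample A from libraries 1 and 2 and sample B from libraries 3 and 4, so each group has n = 2. The tamoxifen samples held 83527470 to 108293362 counts in genes. Nothing in the labels says that samples A and B came from separate animals, so p-values measure the spread between these samples only.

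The 4 tamoxifen samples were not alike within a group. Genes of the choroid plexus, the tissue that makes cerebrospinal fluid, were high in hippocampal sample B and cortical sample A and low in the other 2. Ttr, the transthyretin gene, stood at 33.9 and 7056 CPM in hippocampal samples A and B and at 5691 and 2.79 CPM in cortical samples A and B. All 13 listed choroid plexus genes had this order, and their summed level was 132 and 10660 CPM in the hippocampal samples and 8276 and 83.7 CPM in the cortical ones. Cortical sample B also had the least Mbp, a myelin protein gene, whose CPM were 28220 and 40880 in the hippocampal samples and 56280 and 14440 in the cortical ones. Its endothelial markers summed to 481 CPM against 879 to 1058 CPM in the other 3 samples, and its excitatory neuron markers to 10100 CPM against 5379 to 7937 CPM. Neuronal genes were thus present in all 4 samples, and so were genes of glia and vessels. In such bulk RNA, fewer cells of a type and less RNA per cell cannot be told apart.

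**Figure D1:**
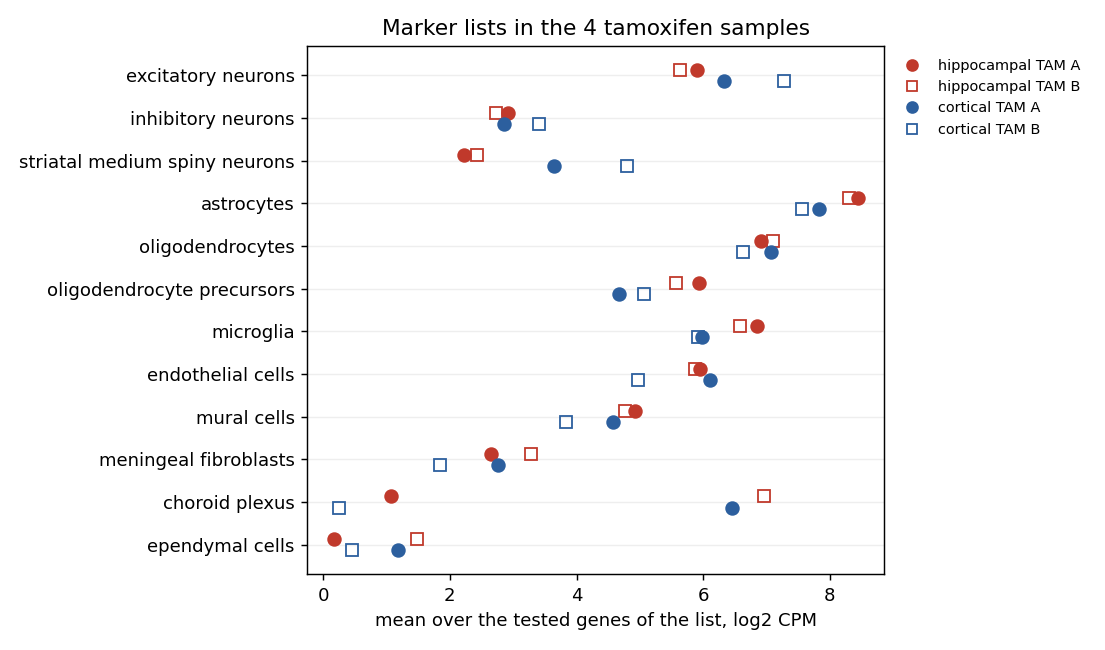
Mean log2 CPM of the tested genes of each marker list (x axis) in the 4 tamoxifen samples, red for hippocampal and blue for cortical, filled for sample A and open for sample B. Choroid plexus markers are high in hippocampal sample B and cortical sample A.

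Hippocampal and cortical tamoxifen samples differed at 202 of 18074 genes tested, 1.12% of them, by edgeR's quasi-likelihood test at a Benjamini-Hochberg adjusted p under 0.05 over all genes. Of these, 77 (0.426%) were higher and 125 (0.692%) lower in the hippocampal samples. The genes called higher had log2 fold changes, hippocampal minus cortical, of 0.66 to 3.79 with a median of 1.345, and 50 of them were over 2-fold. Those called lower ran from -0.71 to -7.39 with a median of -1.54, and 102 were over 2-fold. The median over all genes tested was -0.03, and 47.5% of them had a positive log2 fold change. These shares over all tested genes are the background for the counts of each list below. In all 202 called genes the 4 libraries of a region lay wholly above or below the 4 of the other region, as they did upwards in 13.3% and downwards in 14.2% of all tested genes. Lack of overlap in a called gene named below thus adds nothing to its call. Genes named by size or p were also chosen to have it.

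How many genes passed depended on single samples and on the tool. Without cortical sample A 1687 genes were called higher and 2405 lower, and without cortical sample B 105 and 241. Without hippocampal sample A or hippocampal sample B edgeR called 0 genes, the smallest adjusted p being 0.125 and 0.0662, and 2614 and 2361 genes had an unadjusted p under 0.05. The control samples enter the tamoxifen contrast only through the shared spread, the filter on low counts and the scaling. Yet leaving out any control sample left almost no calls. DESeq2 called 896 genes higher and 1050 lower on the same summed samples. The sign of all 202 log2 fold changes was the same in every fit run, which the lack of overlap between the libraries largely fixes. None of the calls described from here on was kept when either hippocampal tamoxifen sample was left out.

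Among genes of at least 5 CPM in the higher region, Fibcd1 and C1ql2 led the named genes called higher. They belong to the CA1 and dentate lists. Fibcd1, a gene of CA1 pyramidal cells that encodes a membrane protein binding acetylated molecules, stood at 41.4 and 35.5 CPM in hippocampal samples A and B and at 4.68 and 4.07 CPM in cortical samples A and B. That is 8.79-fold higher (log2 fold change 3.14, SE 0.24, edgeR adjusted p = 0.0189). Both hippocampal samples lay far above both cortical ones, and the difference within a region was small. The gene lies at chr2:31813290-31846005 in mm10, on the minus strand.

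Cabp7, which encodes a neuronal calcium-binding protein, measured 327 and 309 CPM in the hippocampal samples and 67.8 and 49.4 CPM in the cortical ones (log2 fold change 2.44, SE 0.19, edgeR adjusted p = 0.0189). Shisa6, an auxiliary subunit of AMPA-type glutamate receptors, measured 30.02 and 27.5 CPM against 4.97 and 5.84 CPM (log2 fold change 2.41, SE 0.16, edgeR adjusted p = 0.0189). C1ql2, a secreted synaptic organiser of dentate mossy fibres, measured 10.2 and 9.66 CPM against 2.10 and 1.52 CPM (log2 fold change 2.45, SE 0.25, edgeR adjusted p = 0.0271). None of these genes had overlapping samples, which the rule that named them required. In mm10 they lie at chr11:4736892-4746778, chr11:66211725-66525964 and chr1:120340582-120343171.

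The subfield lists as a whole moved less than these leaders. Over all tested genes 0.426% were called higher and 0.692% lower. Of 8 CA1 genes tested, 1 (Fibcd1) was called higher and none lower, and the list median log2 fold change was 0.62. Gpr161, a receptor of the primary cilium, measured 6.18 and 6.82 CPM against 3 and 1.77 CPM without overlap and without passing (edgeR adjusted p = 0.0572). Wfs1, another CA1 marker, overlapped between regions at 58.5 and 51.01 CPM against 42.5 and 61.6 CPM. Among 10 CA3 genes (median 0.25), 2 were called higher and none lower. Cpne7, a calcium-dependent membrane-binding copine, measured 37.4 and 50.5 CPM against 9.86 and 12.3 CPM (log2 fold change 1.99, SE 0.25, edgeR adjusted p = 0.0354). The synaptic scaffold gene Homer3 measured 16.9 and 17.7 CPM against 8.81 and 5.92 CPM (log2 fold change 1.24, SE 0.20, edgeR adjusted p = 0.0459). Both were above the cortical samples in each hippocampal sample. Coch, listed with CA3, had the opposite sign without passing, at 0.376 and 0.827 CPM against 3.68 and 6.03 CPM (edgeR adjusted p = 0.0546).

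Dentate granule cell genes were split, with 1 of 14 called higher (C1ql2), none lower and a median of 0.14. Prox1, the transcription factor that defines granule cells, stood at 18.8 and 18.8 CPM in the hippocampal samples and at 21.8 and 10.1 CPM in the cortical ones, so its groups overlapped. Calb1, the calbindin gene, which cortical neurons also express, stood at 11.6 and 6.92 CPM against 12.03 and 31.9 CPM. Lct, a dentate marker that encodes lactase, was at 3.75 and 1.79 CPM against 0.812 and 0.414 CPM (edgeR adjusted p = 0.0682). Among 7 CA2 genes tested Pcp4 was the 1 called, and it was lower, at 7.53 and 6.52 CPM against 18.3 and 33.4 CPM (log2 fold change -1.88, SE 0.30, edgeR adjusted p = 0.0447). Pcp4 encodes a calmodulin-binding peptide that deep cortical and striatal neurons make too.

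Transcription factors of the hippocampal field were mostly close between regions. Of 14, Lhx9, a LIM homeobox gene, was the 1 called, higher and at a low level: 1.30 and 1.41 CPM against 0.159 and 0.0528 CPM (log2 fold change 3.73, SE 0.57, edgeR adjusted p = 0.0430). The list median was 0.21. A list of thalamic and other subcortical genes (13 tested) had a median of 0.56 and no call, with the libraries of 6 separate upwards and of 2 downwards. Over all tested genes 13.3% were separate upwards and 14.2% downwards. In the controls the median of the subcortical list was 0.03. Zbtb20, a repressor needed for CA1 identity, measured 222 and 219.8 CPM against 217 and 129.6 CPM. Nr3c2, the mineralocorticoid receptor gene, measured 42.97 and 32.7 CPM against 18.9 and 20.6 CPM, without overlap and without passing (log2 fold change 0.94, SE 0.17, edgeR adjusted p = 0.0540).

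**Figure D2:**
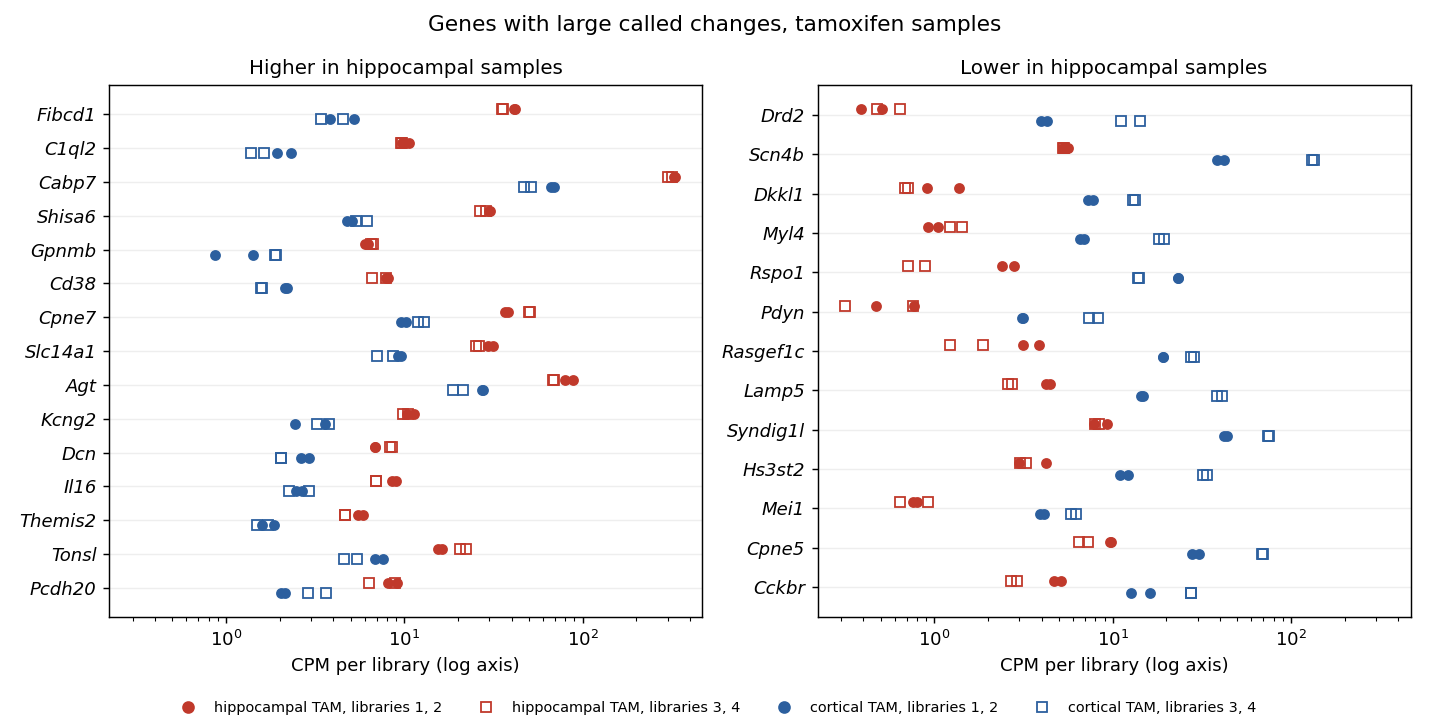
CPM per library on a log axis for genes among those of largest called change in each direction, red for hippocampal and blue for cortical tamoxifen libraries, with filled circles for libraries 1 and 2 and open squares for libraries 3 and 4. In every gene shown the 4 libraries of one region lie apart from those of the other, which the rule that chose the genes required.

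Genes called higher were not all neuronal. Agt, the angiotensinogen gene, which astrocytes express in brain, stood at 83.9 and 68.8 CPM in the hippocampal samples and at 27.6 and 19.9 CPM in the cortical ones (log2 fold change 1.69, SE 0.22, edgeR adjusted p = 0.0368). Gpnmb, a transmembrane glycoprotein of phagocytes, measured 6.13 and 6.59 CPM against 1.20 and 1.89 CPM (log2 fold change 2.03, SE 0.24, edgeR adjusted p = 0.0312). Cd38, an enzyme that consumes NAD, measured 7.99 and 7.21 CPM against 2.19 and 1.58 CPM (log2 fold change 2.01, SE 0.26, edgeR adjusted p = 0.0368). All 3 were separate between regions, as every called gene was. The urea transporter gene Slc14a1, the potassium channel subunit gene Kcng2, the matrix proteoglycan gene Dcn, the cytokine precursor gene Il16, Themis2, Tonsl and the protocadherin gene Pcdh20 complete the 15 of largest change, with log2 fold changes of 1.597 to 1.72. The smallest p-values added Paqr6, Lrig1, an inhibitor of growth factor receptors, and Gja1, at log2 fold changes of 1.395, 1.345 and 1.15.

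Genes called lower in the hippocampal samples were led, again among those of at least 5 CPM, by Drd2, the dopamine D2 receptor gene. It stood at 0.444 and 0.557 CPM in hippocampal samples A and B and at 4.10 and 12.9 CPM in cortical samples A and B. That is 17-fold lower (log2 fold change -4.09, SE 0.55, edgeR adjusted p = 0.0368). The groups did not overlap, as in every called gene, but the cortical samples differed from each other, sample B being the higher. Scn4b, a sodium channel beta subunit, measured 5.44 and 5.28 CPM against 40.7 and 132 CPM (log2 fold change -4.01, SE 0.54, edgeR adjusted p = 0.0378).

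Drd2 belongs to a list of 20 genes known from striatal medium spiny neurons, the projection cells of the striatum, several of which cortical neurons also express. All 20 had a negative log2 fold change, with a median of -2.40, and 7 were called lower. The libraries of 18 of the 20 did not overlap between regions. Over all tested genes 47.5% were positive, 0.692% were called lower and 14.2% were separate downwards. Syndig1l, a synaptic membrane protein, measured 8.55 and 8.13 CPM against 42.9 and 74.8 CPM (log2 fold change -2.82, SE 0.28, edgeR adjusted p = 0.0271). Pdyn, the precursor of dynorphin opioid peptides, the retinoid receptor gene Rxrg, the small GTPase gene Rasd2 and the homeobox gene Meis2 were called too, at log2 fold changes of -3.24, -1.93, -1.72 and -1.21.

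Not every well-known striatal gene passed. Drd1a, the files' name for the D1 receptor gene Drd1, measured 0.402 and 0.313 CPM against 2.25 and 10.5 CPM (log2 fold change -4.16, SE 0.76, edgeR adjusted p = 0.0560). Penk, the enkephalin precursor, measured 2.68 and 2.51 CPM against 10.2 and 61.4 CPM (edgeR adjusted p = 0.122), and its cortical samples were far apart. Adora2a, a striatal adenosine receptor gene, measured 3.14 and 3.13 CPM against 8 and 26.6 CPM (edgeR adjusted p = 0.0696). Cortical sample B was above cortical sample A in all 20 genes of the list. It was so in 100 of the 125 genes called lower, against 9398 of 18074 tested genes. Cortical sample B also had the highest summed excitatory neuron markers. The part of this sample's makeup in the values of the list and of the genes called lower was not tested.

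Neocortical layer genes were another group called lower. Of 19 genes of upper layers 2 to 4, 4 were called lower and none higher, with a median log2 fold change of -0.94. Over all tested genes 0.692% were called lower. Rspo1, a secreted enhancer of Wnt signalling, stood at 2.60 and 0.792 CPM in the hippocampal samples and at 23.3 and 13.9 CPM in the cortical ones (log2 fold change -3.45, SE 0.55, edgeR adjusted p = 0.0476). Lamp5, a lysosome-associated membrane protein of cortical neurons, measured 4.32 and 2.64 CPM against 14.5 and 39.9 CPM (log2 fold change -2.97, SE 0.48, edgeR adjusted p = 0.0467). In each of these genes both cortical samples were above both hippocampal ones, and the higher cortical sample was A for Rspo1 and B for Lamp5. The activity-regulated transcription factor gene Mef2c was also called, at 55.95 and 46.5 CPM against 127 and 254 CPM.

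Cux2 and Rasgrf2, further upper layer markers, did not overlap and did not pass. Cux2, a homeobox factor, measured 45.6 and 36.2 CPM against 124 and 77.2 CPM (edgeR adjusted p = 0.0682), and Rasgrf2, an activator of Ras, 16.99 and 12.9 CPM against 30.7 and 43.3 CPM (edgeR adjusted p = 0.0516). Of the 19 genes 6 had a positive sign, among them Mdga1, an adhesion protein gene, at 29.5 and 22.7 CPM against 17.3 and 13.4 CPM (edgeR adjusted p = 0.0993). Rorb, the layer 4 nuclear receptor gene, measured 40.2 and 32.3 CPM against 37.4 and 33.4 CPM, with overlap.

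Of 26 genes of deep layers 5 and 6, 2 were called lower and none higher, with a median of -0.29, against 0.692% called lower of all tested genes. Tbr1, a T-box factor of layer 6, measured 21.5 and 16.6 CPM against 55.7 and 123 CPM (log2 fold change -2.23, SE 0.37, edgeR adjusted p = 0.0487). Cplx3, a complexin of subplate neurons, measured 8.18 and 6.80 CPM against 18.6 and 18.5 CPM, a difference with little spread in either group (log2 fold change -1.31, SE 0.14, edgeR adjusted p = 0.0280). The layer 5 factor genes Fezf2 and Bcl11b, which hippocampal pyramidal cells can also express, overlapped between regions. Fezf2 measured 14.4 and 13.7 CPM against 8.46 and 17.1 CPM and Bcl11b 63.3 and 39.3 CPM against 45.2 and 82.7 CPM. Foxp2, a layer 6 factor, measured 0.794 and 0.357 CPM against 2.73 and 17.7 CPM (edgeR adjusted p = 0.0738), with its cortical samples far apart.

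The genes called lower that are named next were in neither layer list. Dkkl1 measured 1.15 and 0.696 CPM against 7.51 and 13.1 CPM (log2 fold change -3.49, SE 0.35, edgeR adjusted p = 0.0271), and the cholecystokinin receptor gene Cckbr 4.92 and 2.81 CPM against 14.1 and 27.6 CPM (log2 fold change -2.43, SE 0.37, edgeR adjusted p = 0.0438). Myl4, Rasgef1c, the heparan sulfate sulfotransferase gene Hs3st2, Mei1 and the copine gene Cpne5 were also among the 15 of largest change, at log2 fold changes of -2.57 to -3.49. Smaller but tightly measured differences were those of Nefm, a neurofilament subunit, at 71.4 and 63.7 CPM against 157 and 178 CPM (log2 fold change -1.31, SE 0.13, edgeR adjusted p = 0.0271), and of the lipid transfer gene Stard10, at 36.4 and 35.99 CPM against 96.8 and 87.2 CPM (log2 fold change -1.35, SE 0.13, edgeR adjusted p = 0.0271). Rgs6, Gsg1l, Mlip, Incenp and the kinesin gene Kif17 had log2 fold changes of -1.22 to -1.59.

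For the leading gene of each direction, the 250 bases before the start site are shown from the RefSeq promoter table of GRCm38.p6, the assembly that mm10 also represents, to let the 2 upstream regions be compared. The Fibcd1 window is chr2:31846006-31846255 on the minus strand and the Drd2 window chr9:49340153-49340402 on the plus strand, both written 5′ to 3′ along the gene. Capitals mark the GC box GGGCGG, searched on both strands, a motif that zinc finger factors of the Sp family can bind.
Fibcd1: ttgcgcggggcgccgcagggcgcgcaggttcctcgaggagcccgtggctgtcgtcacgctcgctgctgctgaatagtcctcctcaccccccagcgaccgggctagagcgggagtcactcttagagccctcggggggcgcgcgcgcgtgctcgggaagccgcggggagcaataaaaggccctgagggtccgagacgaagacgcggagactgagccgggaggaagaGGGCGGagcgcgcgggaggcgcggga
Drd2: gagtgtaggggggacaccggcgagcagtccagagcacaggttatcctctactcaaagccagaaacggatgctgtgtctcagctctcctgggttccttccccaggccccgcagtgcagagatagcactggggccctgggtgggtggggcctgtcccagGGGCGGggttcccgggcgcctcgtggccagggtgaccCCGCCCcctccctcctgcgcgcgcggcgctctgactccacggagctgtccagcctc
The Fibcd1 window held 1 and the Drd2 window 2 such boxes. A GC box was in 49.2% of the 59 genes called higher that had a window, in 50% of 74 called lower, in 60.1% of 12102 tested genes and in 35.4% of all 27025 genes of the table. A match describes letters and is not a measured site of binding.

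Markers of astrocytes, oligodendrocyte precursors and microglia had positive log2 fold changes, few of which passed, and so had vessel, choroid plexus and meningeal fibroblast markers. Those of mature oligodendrocytes did not share a sign. All 13 astrocyte genes tested had a positive log2 fold change (median 0.75), the libraries of 11 did not overlap, and 2 were called higher. Over all tested genes 47.5% were positive, 13.3% were separate upwards and 0.426% were called higher. Gja1, the gap junction protein connexin 43, measured 326 and 281 CPM in the hippocampal samples and 132 and 142 CPM in the cortical ones (log2 fold change 1.15, SE 0.13, edgeR adjusted p = 0.0303). Gjb6, connexin 30, measured 87.4 and 77.1 CPM against 48.7 and 49.3 CPM (log2 fold change 0.75, SE 0.11, edgeR adjusted p = 0.0430). Gfap, the intermediate filament gene, stood at 592 and 659 CPM against 281 and 165 CPM without passing (log2 fold change 1.49, SE 0.26, edgeR adjusted p = 0.0508). Both hippocampal samples were above both cortical ones in these genes. Aqp4, the water channel of astrocyte endfeet, measured 139 and 107 CPM against 71.3 and 64.03 CPM (edgeR adjusted p = 0.0526).

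Genes of oligodendrocyte precursors and microglia had the same sign. All 8 precursor genes were positive with separate libraries and a median of 0.97, where 13.3% of all tested genes were separate upwards. Cspg4, the NG2 proteoglycan gene, was called at 63.4 and 50.2 CPM against 25.1 and 24.8 CPM (log2 fold change 1.19, SE 0.15, edgeR adjusted p = 0.0354). Pdgfra, the growth factor receptor of these cells, measured 112 and 86.6 CPM against 35.8 and 57.4 CPM (edgeR adjusted p = 0.0713). All 14 microglial genes were positive with a median of 0.82, and none was called. P2ry12, a purinergic receptor of resting microglia, measured 134 and 108 CPM against 62.1 and 56.7 CPM (edgeR adjusted p = 0.0587), and the growth factor receptor gene Csf1r 446 and 391 CPM against 227 and 214 CPM (edgeR adjusted p = 0.0856). Of 18 genes of disease-associated microglia, 1 (Gpnmb) was called higher, all were positive and the median was 0.71. Mature oligodendrocyte genes (14 tested, 10 positive and 4 negative, median 0.035) and endothelial genes (12 tested, all positive, median 0.25) had no call. The endothelial genes summed to 926 and 879 CPM in the hippocampal samples and to 1058 and 481 CPM in cortical samples A and B. Their median in the controls was -0.13, and 2 of the 12 had the same sign there. The listed genes of mural cells (10 tested, median 0.66), choroid plexus (13 tested, median 0.53) and meningeal fibroblasts (12 tested, median 0.79) were all positive too. Of these Dcn alone was called. The libraries of 6 mural, 5 fibroblast and no choroid plexus or endothelial genes were separate. Of 9 ependymal genes 6 were positive and 3 negative.

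Excitatory neuron markers had negative log2 fold changes, most of which did not pass. All 12 excitatory neuron genes had a negative log2 fold change (median -1.07), and 2 were called lower, among them the layer gene Tbr1. Over all tested genes 47.5% were positive and 0.692% were called lower. Snap25, a vesicle fusion protein, measured 224 and 209.5 CPM against 396 and 906 CPM (edgeR adjusted p = 0.0763). Slc17a7, the vesicular glutamate transporter of cortical and hippocampal neurons, measured 407 and 328 CPM against 510.1 and 952 CPM (edgeR adjusted p = 0.116). Cortical sample B was above cortical sample A in 11 of the 12. The astrocyte, precursor and microglial lists and the excitatory neuron list thus had opposite signs in the same samples, and the part of these shifts in the regional genes was not tested.

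Inhibitory neuron genes were mixed, 7 positive and 11 negative of 18, with a median of -0.59. Calb2, the calretinin gene of some interneurons and of hippocampal mossy cells, was called higher at 9.95 and 6.87 CPM against 3.36 and 3.22 CPM (log2 fold change 1.35, SE 0.23, edgeR adjusted p = 0.0487). Sst, the somatostatin gene, measured 13.2 and 13.5 CPM against 18.8 and 50.8 CPM (edgeR adjusted p = 0.119). Gad1, an enzyme that makes GABA, measured 33.02 and 30.4 CPM against 37.2 and 65 CPM (edgeR adjusted p = 0.188), so both of these stood lower in the hippocampal samples without passing.

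**Figure D3:**
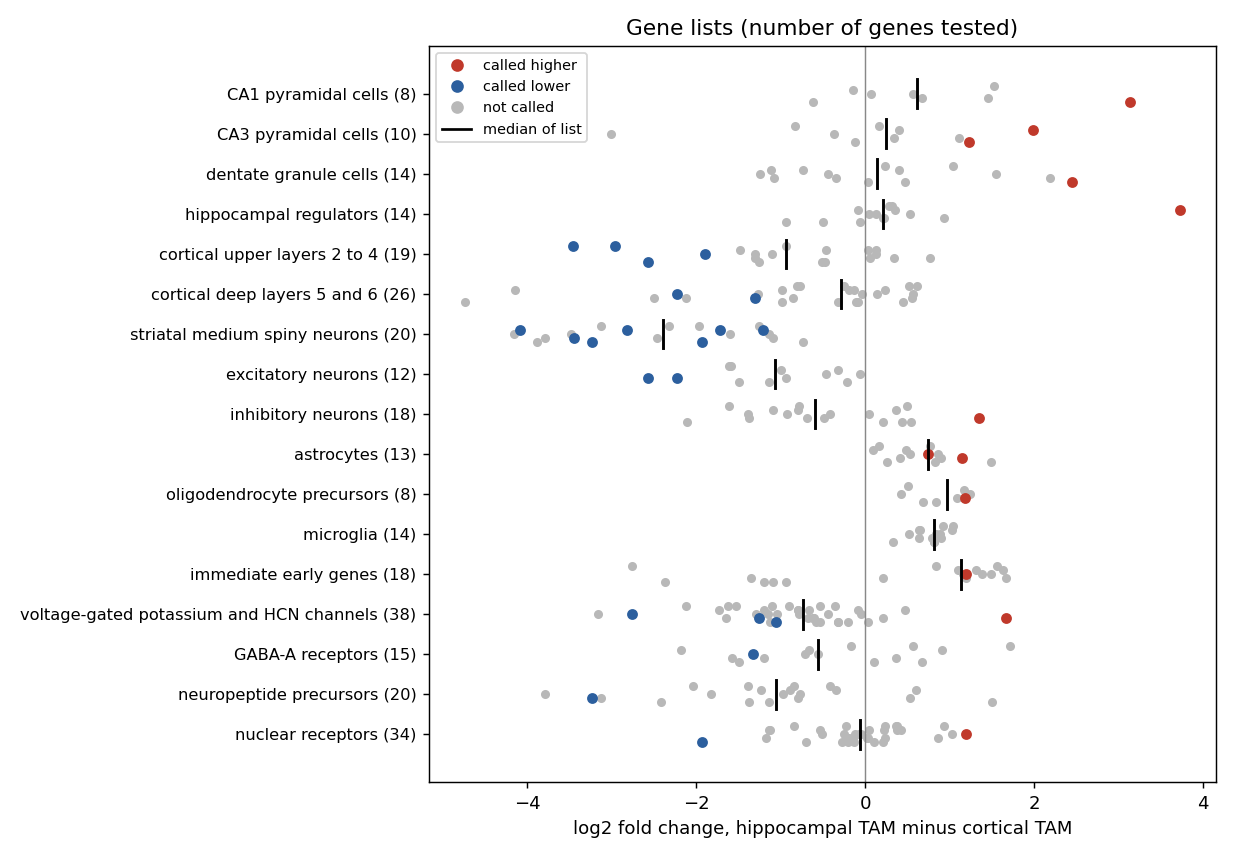
Log2 fold change, hippocampal minus cortical tamoxifen samples (x axis), of every tested gene of the lists shown, red where called higher, blue where called lower and grey where not called, with the list median as a black bar. The striatal list lies wholly below 0, and the astrocyte, precursor and microglial lists wholly above it.

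Among receptors and channels, voltage-gated potassium and HCN channel genes gave the most calls. Of 38, 34 had a negative log2 fold change (median -0.73), 3 were called lower and 1 higher. Over all tested genes 47.5% were positive, 0.692% were called lower and 0.426% higher. Kcnh3, a channel of the ether-a-go-go family, measured 90.4 and 65.9 CPM against 163 and 212 CPM (log2 fold change -1.26, SE 0.19, edgeR adjusted p = 0.0430), and its relative Kcnh4 0.564 and 0.461 CPM against 2.19 and 4.78 CPM (log2 fold change -2.77, SE 0.43, edgeR adjusted p = 0.0447). Against this direction, Kcng2, a silent subunit that alters Kv2 channels, was called higher at 10.8 and 10.2 CPM against 3.13 and 3.45 CPM (log2 fold change 1.67, SE 0.19, edgeR adjusted p = 0.0312). Cortical sample B was above cortical sample A in 35 of the 38 genes.

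Transmitter receptors gave 1 call or none in each family, where 1.12% of all tested genes were called. Gabra3, a GABA-A receptor subunit, was called lower at 29.2 and 25.8 CPM against 55.9 and 82.2 CPM (log2 fold change -1.33, SE 0.19, edgeR adjusted p = 0.0385), the 1 call among 15 GABA-A genes. Gabrd, the delta subunit of extrasynaptic receptors, measured 6.83 and 3.54 CPM against 16.8 and 30.1 CPM (edgeR adjusted p = 0.0509). None of 18 ionotropic glutamate receptor, 7 metabotropic glutamate receptor and 12 serotonin receptor genes was called, and of 17 muscarinic, nicotinic and dopamine receptor genes Drd2 alone was. Among 20 neuropeptide precursors, 17 were negative (median -1.05) and Pdyn was called lower, at 0.615 and 0.548 CPM against 3.12 and 7.87 CPM. Npy, neuropeptide Y, measured 5.99 and 3.21 CPM against 11.03 and 26.8 CPM (edgeR adjusted p = 0.0738). Sema3a, a repulsive axon guidance cue, was the 1 called of 31 semaphorin, plexin and neuropilin genes, at 0.290 and 0.165 CPM against 1.70 and 6.43 CPM (log2 fold change -4.15, SE 0.68, edgeR adjusted p = 0.0480). The 22 Eph receptor and ephrin genes and the 19 classical cadherin genes had no call.

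Immediate early genes, which neurons and other cells switch on within minutes of a stimulus, divided by direction. Of 18, 12 were positive and 6 negative, and the libraries of 11 lay higher and of 5 lower without overlap. Over all tested genes 13.3% lay higher and 14.2% lower without overlap. Nr4a3, an orphan nuclear receptor, was the 1 called, higher at 26.4 and 25.8 CPM in the hippocampal samples and 9.74 and 13.1 CPM in the cortical ones (log2 fold change 1.19, SE 0.16, edgeR adjusted p = 0.0368). Fos, which forms the AP-1 factor with Jun, measured 295 and 287 CPM against 163 and 44.3 CPM (log2 fold change 1.49, SE 0.55, edgeR adjusted p = 0.186). Jun measured 435 and 387 CPM against 219 and 96.5 CPM (edgeR adjusted p = 0.106). In both, cortical sample B was the lowest of the 4 samples. Btg2, an antiproliferative gene, measured 114 and 127 CPM against 51.9 and 23.9 CPM (edgeR adjusted p = 0.0760), with cortical sample B again the lowest.

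The 6 negative genes were Arc, Homer1, Nptx2 and the transcription factor genes Egr3, Egr4 and Npas4, none of which passed. Arc, a capsid-like synaptic protein, measured 75.1 and 51.7 CPM against 115 and 156 CPM (log2 fold change -1.10, SE 0.32, edgeR adjusted p = 0.122). Homer1, a postsynaptic scaffold, measured 23.6 and 25.7 CPM against 42.1 and 70.97 CPM (edgeR adjusted p = 0.0587), and Nptx2, a secreted pentraxin that clusters AMPA receptors, 3.23 and 2.08 CPM against 6.83 and 20.5 CPM (edgeR adjusted p = 0.0683). In these 3 genes cortical sample B was the highest sample. The early growth response factors differed among themselves, Egr1 at 301 and 323 CPM against 164 and 126 CPM (edgeR adjusted p = 0.0600) and Egr4 at 5.31 and 3.81 CPM against 7.09 and 16.1 CPM (edgeR adjusted p = 0.103). All 18 genes had the same sign in the controls as in the tamoxifen samples.

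**Figure D4:**
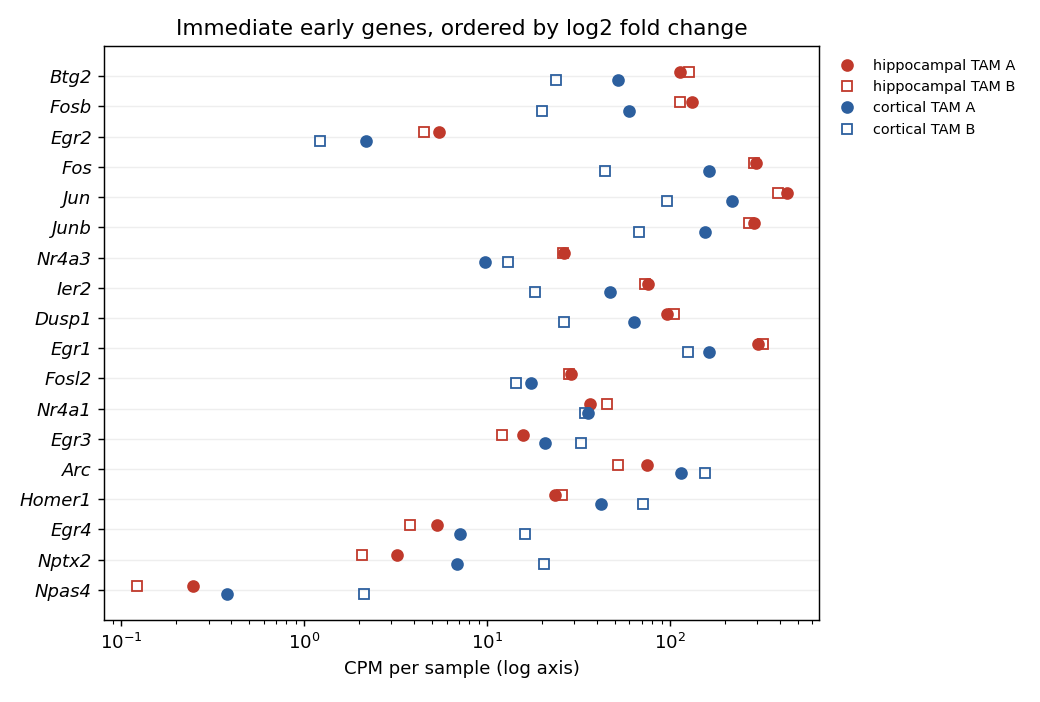
CPM of 18 immediate early genes on a log axis in the 4 tamoxifen samples, red for hippocampal and blue for cortical, filled for sample A and open for sample B. Genes such as Nr4a3 and Btg2 lie to the right in the hippocampal samples, and Egr3, Egr4, Arc, Homer1 and Nptx2 lie to the left.

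The upstream windows of 4 early genes are shown to compare genes of both signs: Nr4a3 (chr4:48045055-48045304, plus strand), Fos (chr12:85473640-85473889, plus strand), Btg2 (chr1:134079156-134079405, minus strand) and Egr4 (chr6:85513590-85513839, minus strand), each the 250 bases before the start site in GRCm38.p6 from RefSeq, written 5′ to 3′ along the gene. Capitals mark the cAMP response element core TGACGT, searched on both strands, which CREB-family factors can bind and which also lies within the full element TGACGTCA.
Nr4a3: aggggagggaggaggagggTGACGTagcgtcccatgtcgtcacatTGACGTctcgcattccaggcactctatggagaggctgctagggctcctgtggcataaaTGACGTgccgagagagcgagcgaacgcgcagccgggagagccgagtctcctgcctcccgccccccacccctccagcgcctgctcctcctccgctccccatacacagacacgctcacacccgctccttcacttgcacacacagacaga
Fos: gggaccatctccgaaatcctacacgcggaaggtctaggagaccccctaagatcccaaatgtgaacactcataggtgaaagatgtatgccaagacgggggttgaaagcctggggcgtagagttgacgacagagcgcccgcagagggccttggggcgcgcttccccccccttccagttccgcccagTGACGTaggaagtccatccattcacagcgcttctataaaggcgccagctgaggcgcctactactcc
Btg2: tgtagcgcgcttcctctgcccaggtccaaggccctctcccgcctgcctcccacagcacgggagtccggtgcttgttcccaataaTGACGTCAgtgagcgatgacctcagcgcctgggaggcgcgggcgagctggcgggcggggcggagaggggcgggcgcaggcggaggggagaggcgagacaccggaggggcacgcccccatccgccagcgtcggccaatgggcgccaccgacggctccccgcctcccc
Egr4: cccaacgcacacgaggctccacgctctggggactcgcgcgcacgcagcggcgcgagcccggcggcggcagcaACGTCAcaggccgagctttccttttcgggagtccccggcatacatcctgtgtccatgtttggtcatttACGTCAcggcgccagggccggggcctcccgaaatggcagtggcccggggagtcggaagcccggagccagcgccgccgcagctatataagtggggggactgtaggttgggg
Nr4a3 held 3 core motifs, Fos 1 and Egr4 2. The 2 matches in Btg2 are a single palindromic full element, counted once on each strand. Of 13 early genes with a window, 8 held at least 1 core motif, 61.5%, against 7.29% of all 27025 genes of the table and 10.6% of tested genes with a window. Among the 8, Nr4a3, Fos, Btg2, Dusp1 and Egr2 had a positive log2 fold change and Egr4, Npas4 and Homer1 a negative one, so the core motif was found in genes of both signs. It was in 6.78% of genes called higher and 5.41% of genes called lower that had a window.

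Nuclear receptor genes, the family of tamoxifen's own targets, were balanced, 16 positive and 18 negative of 34, with Nr4a3 called higher and Rxrg lower. Esr1, estrogen receptor alpha, stood at 2.11 and 1.77 CPM in the hippocampal samples and at 1.22 and 3.04 CPM in the cortical ones, with overlap (log2 fold change -0.14, SE 0.41, edgeR adjusted p = 0.890). Pgr, the progesterone receptor gene, measured 3.94 and 3.14 CPM against 6.10 and 9.47 CPM (edgeR adjusted p = 0.0727).

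Tert did not separate the tamoxifen groups. It stood at 0.931 and 2.04 CPM in the hippocampal samples and at 1.26 and 2.05 CPM in the cortical ones, and the values interleave. The test gave no call (log2 fold change -0.16, SE 0.65, edgeR adjusted p = 0.921). In the controls Tert stood at 1.29 and 3.59 CPM in the hippocampal samples and at 0.546 and 1.32 CPM in the cortical ones. With tamoxifen, the lower and the higher value were thus each below those of the controls in hippocampus and above them in cortex. The 2 treatments overlapped in both regions, and tamoxifen was not tested against control here. A two-sided exact permutation test of log2(CPM + 0.5) gave p = 0.667, where 2 against 2 samples cannot go below 0.333. None of the 6 tested genes of the telomerase complex was called, and all 6 had a negative sign (median -0.24). No gene of amyloid and tau processing (19 tested, median 0.06) was called. The 13 mitochondrially encoded genes gave no call either, and cortical sample B was above cortical sample A in 1 of them. The cytochrome oxidase subunit gene mt-Co1 stood at 66040 and 65730 CPM against 98650 and 51190 CPM.

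The same region contrast was measured in the control mice, in samples that the tamoxifen contrast does not compare. Both contrasts share the filter on low counts, the scaling and 1 estimate of spread. In the controls 489 genes (2.71%) were called higher and 629 (3.48%) lower. Of the 77 genes called higher with tamoxifen, 75 had the same sign in the controls and 41 were called there, 53.25% of the tamoxifen calls and 8.38% of the control calls. Of the 125 called lower, all had the same sign and 120 were called, 96% and 19.1%. The control medians of these sets were 0.80 and -1.66. Fibcd1 stood at 36.2 and 37.98 CPM in hippocampal controls and 4.05 and 2.51 CPM in cortical ones, and Drd2 at 0.335 and 0.358 CPM against 10.3 and 7.82 CPM, so both regional differences were also present without tamoxifen.

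**Figure D5:**
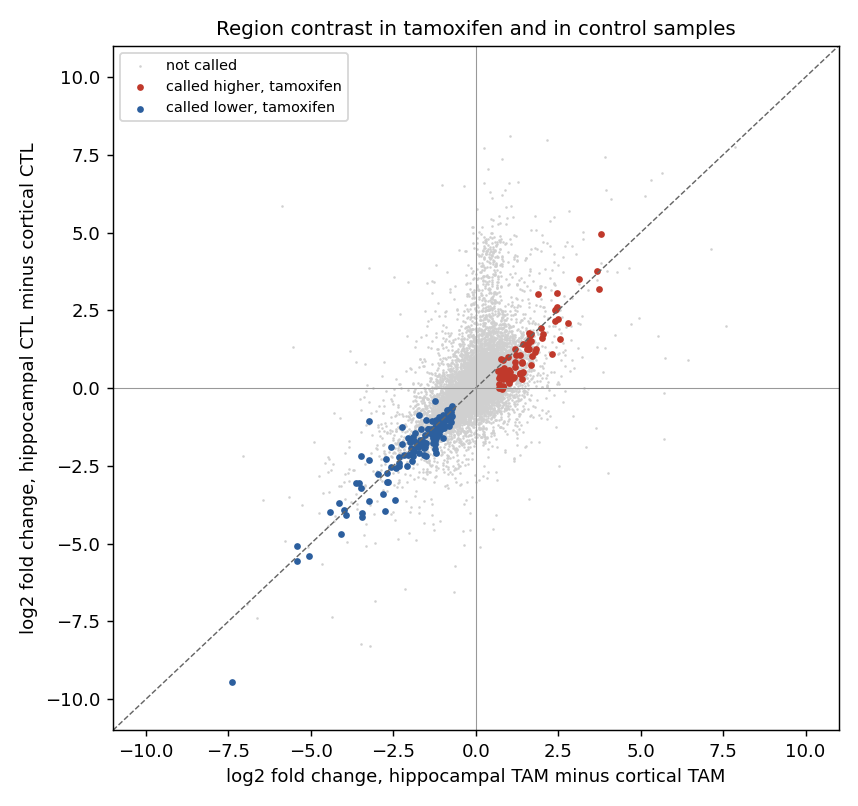
Log2 fold change between regions in tamoxifen samples (x axis) against that in control samples (y axis) for 18074 genes, grey where not called with tamoxifen, red where called higher and blue where called lower. All blue points and 75 of 77 red ones have the same sign on both axes.

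Genes called higher varied in their control value. Fibcd1, Cabp7, Shisa6, C1ql2 and Cpne7 had control log2 fold changes of 1.93 to 3.50, all called. Several others were smaller and not called in the controls: Gja1 was at 0.35 against 1.15 with tamoxifen, Lrig1 at 0.46 against 1.345, Paqr6 at 0.48 against 1.395 and Agt at 0.74 against 1.69. The test of the difference itself passed for 0 of 18074 genes in edgeR (0%, smallest adjusted p 0.889), while 981 genes had an unadjusted p under 0.05. DESeq2 called 9, limma voom with correlated libraries 112 and edgeR over the 16 libraries counted separately 867. The last of these treats near repeats as independent samples, which can inflate its count. The unadjusted p of the difference, by edgeR over n = 2 samples a group, was 0.00296 for Gja1, 0.00356 for Lrig1, 0.00260 for Paqr6 and 0.0155 for Agt. None of them passed the adjustment. These genes were picked for a call with tamoxifen and none in the controls, which in itself favours a small p of the difference.

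The astrocyte list had a median of 0.75 with tamoxifen and 0.04 in the controls, while the microglial list had 0.82 and 0.94. For Gja1 the hippocampal samples were at 326 and 281 CPM with tamoxifen and 243 and 231 CPM in controls, and the cortical samples at 132 and 142 CPM and 184 and 188 CPM. Among genes of smallest p for the difference, Gli3, a transcription factor of hedgehog signalling, had a log2 fold change of 0.43 with tamoxifen and -0.63 in the controls (difference 1.07, SE 0.17, edgeR adjusted p = 0.889). Kcnj16, Slc7a11, Slc13a5 and Bmpr1b, with differences of 0.85 to 0.95, had the same pattern of signs. In the other direction, the matrix gene Matn2 had 0.29 with tamoxifen and 2.58 in the controls (difference -2.29, SE 0.48, edgeR adjusted p = 0.889), and Otud1, Pdia6, Sdf2l1 and Trpc1 had differences of -0.80 to -1.18. None of these 10 passed.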

How the data were processed

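RNA-seq gene counts of 16 libraries in 4 groups of 4 were deposited by the authors as whole-number, unnormalised counts per gene, and the submitters' processing notes name STAR, HTSeq and mm10. Of the versions, the annotation release and the strand setting nothing is stated, so overlapping genes cannot be told apart. Rows that name no gene were removed; reads aligned to several places made up 27.5 to 35.4% of a library, reads in no feature 3.65 to 7.93% and ambiguous reads 1.38 to 1.86%. Libraries 1 and 2, and 3 and 4, were summed. Genes were filtered with filterByExpr (18074 of 39179 kept), scaled by TMM and fitted with edgeR 4.0.16 (robust quasi-likelihood, R 4.3.3), 1 mean for each of the 4 groups, and p-values were adjusted over all genes at 0.05. DESeq2 1.42.0 and limma 3.58.1 were alternatives. The scripts were tested on simulated data. Genes were named by rule: among called genes with at least 5 CPM in the higher region and separate libraries, the 15 of largest change and 10 of smallest p in each direction, leaving out predicted, mitochondrial and sex-linked genes and pseudogenes; the 5 of smallest p each way for the difference; in each list the members of smallest p and those against its direction; and Tert. The comparison and the 37 gene lists (588 of 611 entries tested) were chosen with earlier results of these data known, and a few further list genes, such as Prox1, Wfs1, Rorb, Fezf2 and Esr1, were named after their values were seen. Some genes that meet the rule are not reported here.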

Additional observations from a re-analysis of the deposited data

How the results depend on the processing

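All 202 calls had the same sign under each of the 20 alternatives, and the counts of calls did not hold. For genes higher and lower, RLE scaling gave 57 and 82, upper quartile scaling 61 and 78, no filter on low counts 247 and 289, DESeq2 896 and 1050, limma voom with quality weights 1 and 1, the 16 libraries counted separately 2432 and 3078, limma voom with correlated libraries 1185 and 1676, the tamoxifen libraries alone 1708 and 1928, and the tamoxifen samples alone 0 and 0 (smallest adjusted p 0.304, 2247 genes at an unadjusted p under 0.05). Leaving out 1 tamoxifen sample gave 0 to 1687 higher and 0 to 2405 lower. Leaving out 1 control sample, an alternative chosen after seeing the data, gave 0 to 1 higher and 0 lower. Without mitochondrial genes the counts were 76 and 125. In the controls, DESeq2 called 3193 genes and the 16 separate libraries 6982, against 1118. For the difference between treatments they called 9 and 867, and limma voom with correlated libraries 112, against 0. Fits of libraries counted separately, of all groups or of tamoxifen alone, treat near repeats as independent samples, which can inflate their counts.

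The replicate block was a term for each treatment and sample letter, which pairs same-lettered samples of the 2 regions. With it edgeR called 0 genes higher and 0 lower (smallest adjusted p 0.169, 2926 genes at an unadjusted p under 0.05), 0 in the controls and 0 for the difference. Deviations from the group mean of same-lettered samples of the 2 regions correlated at -0.57 with tamoxifen and 0.34 in the controls over 10388 genes. Such a value per treatment cannot decide whether the letters pair the samples. A crossed pairing, chosen after seeing the data, gave 353 higher, 497 lower and 65 for the difference between treatments.

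The exact test of Tert gave p = 0.667 with a pseudocount of 0.1 and p = 0.8 over 4 against 4 libraries, where near repeats count as separate samples. Among 112 single genes followed under each alternative, the direction of 7, all uncalled, turned when 1 tamoxifen sample was left out, and the cause was not tested. Their log2 fold changes then ran from -0.78 to 0.30 for Tert, -0.21 to 0.90 for Prox1, -0.64 to 0.67 for Esr1, -0.28 to 0.74 for Fezf2, -0.13 to 0.24 for Rorb, -0.17 to 0.37 for Wfs1 and -0.70 to 0.18 for Bcl11b. Each tamoxifen sample held at least 83527470 counts, and each group had 2 samples.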
